A study of Mus musculus with 18 samples.

Results

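Intermediate CpG methylation in early antral follicle (EAF) oocytes was described at 5207 autosomal CpGs. A CpG was taken when at least 10 reads covered it in at least 2 EAF wild-type (WT) oocytes and its methylation level, the methylated count over the total count, averaged from 30% to 70% over those oocytes. Of 1160411 autosomal CpGs listed in any library, 20904 had that coverage, and the members were 24.9% of these, spread over 1224 tiles of 1 kb. Another 13834 covered CpGs averaged under 30% and 1863 averaged over 70%. The EAF WT values chose the members and are given as a description.

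Single mouse oocytes had been profiled by reduced representation bisulfite sequencing (RRBS), which reads bisulfite-treated MspI fragments and so favours CpG-rich DNA. Of 18 libraries, 2 were EAF oocytes lacking the zinc finger transcription factor SALL4 (EAF KO), 4 were EAF WT, 5 were knockout oocytes from secondary follicles, an earlier stage of growth (SF KO), and 7 were wild-type oocytes of that stage (SF WT). The protocol names Sall4 fl/fl;Zp3-Cre and Sall4 fl/fl females, so the floxed alleles are named for both genotypes, and Zp3-Cre drives deletion in growing oocytes. Ages of P12.5 and P17.5, in postnatal days, are listed for all samples and are not tied to a stage. Each library is 1 oocyte and no animal is named. Each group therefore counted as 1 sample, no test between groups was made, and the SD and range over oocytes describe the oocytes at hand.

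Mouse oocytes gain DNA methylation while they grow, through DNMT3A and its partner DNMT3L, largely within transcribed regions, and the mature oocyte methylome is known for being mostly either high or low at a given CpG. An arrested oocyte holds replicated DNA of both parental chromosomes, so a CpG is present in several copies within a cell. Repeated sequence adds copies at other places in the genome.

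Counts summed over CpGs were lowest in SF WT replicate 3, at 464501, and highest in SF KO replicate 2, at 6518646, and between 437 and 4715 members reached 10 reads in a given oocyte. EAF KO replicate 1, EAF WT replicate 2, SF WT replicate 3 and SF WT replicate 7 had under 1000000 counts. SF KO replicate 1 stood apart from the other 4 SF KO oocytes in most values below, and those it moved most are also given without it. The knockout was not checked in any library, since these data do not read the Sall4 transcript or its deletion, so whether that oocyte fits its label was not tested. Intervals are exact binomial 95% intervals and cover counting error only, since neighbouring CpGs share reads and PCR copies are not independent molecules.

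Most members were intermediate inside each oocyte that covered them. At 3302 members, or 63.4% (62.1% to 64.7%), every covered EAF WT oocyte lay from 20% to 80%, and these are called inside CpGs. At 890 members, or 17.1% (16.1% to 18.1%), no covered oocyte lay in that range, so the mean came from high oocytes and low oocytes, and these are called split CpGs. The remaining 1015 members, or 19.5%, were mixed. The division moved with coverage. Among 2189 members covered in 2 oocytes, 47.3% were inside and 36.3% were split, whereas among 1937 members covered in all 4 oocytes 80.3% were inside and none was split. With 4 values, all outside the 20% to 80% range, a mean from 30% to 70% remains possible, and 0 of 1937 allows a share of up to 0.19% by the exact interval.

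Inside CpGs had a median count of 20 per oocyte and split CpGs one of 17. Inside CpGs reached 10 reads in a median of 13 of the 18 libraries, against 5 libraries for split CpGs. Close to the lower bound of the rule, 831 CpGs averaged from 25% to 30% and 682 from 30% to 35%. Around the upper bound, 286 averaged from 65% to 70% and 177 from 70% to 75%.

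The inside CpGs lay almost wholly in CpG arrangements that recur across the genome. For each CpG, every run of 6 consecutive listed CpGs with gaps of at most 60 bp was read as a list of spacings in either orientation, and the places where the same list occurs were counted in separate 10-kb bins. Of the 3186 inside CpGs in such a run, 99.7% had a spacing found at 10 or more places, and the median number of places was 458. Mixed CpGs stood at 94.2%. Split CpGs stood at 67.3% of 698, with a median of 52.5 places. The share was 93.9% over all members with a run, 63.1% over all covered CpGs, 49.0% over those with a low mean, 74.8% over those with a high mean and 23.4% over all listed autosomal CpGs. The range from 30% to 70% was not particular in this. Just outside it, the share was 94.8% for means of 25% to 30% and 97.7% for 70% to 75%, against 95.03% and 92.3% just inside it, at 30% to 35% and 65% to 70%. It lay between 83.8% and 99.2% in every bin of 5 points from 5% to 95%, and stood at 24.5% under 5% and 49.8% from 95%. A run of 6 could not be formed for 423 members. The spacing measure was chosen after the values had been seen, and it shows repeated spacing, not repeated sequence, since no genome of the build was used.

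**Figure D1:**
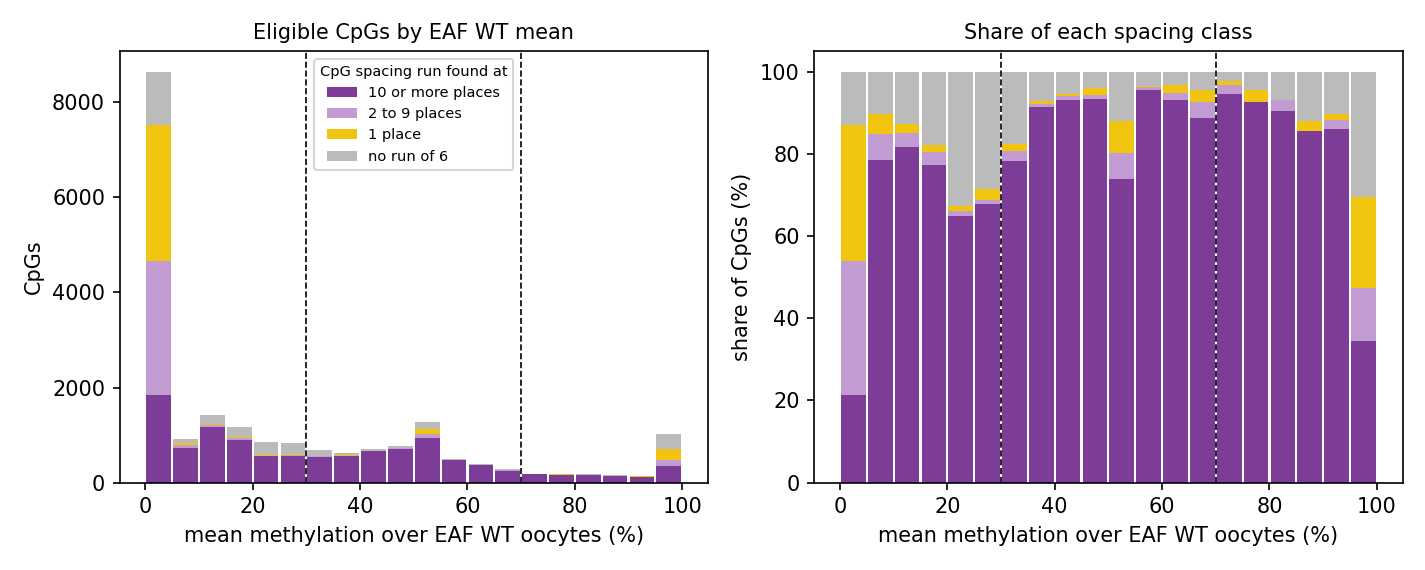
Covered CpGs by their mean methylation over EAF WT oocytes in bins of 5 points, as numbers (left) and as shares of each bin (right), coloured by the number of places at which the CpG spacing was found. Dashed lines mark the 30% and 70% bounds of the rule, and spacings found at 10 or more places make up most of each bin from 5% to 95%, on both sides of the bounds.

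Only 151 members had a spacing found at a single place, and they divided in the opposite way. Of these, 125 were split, 21 were mixed and 5 were inside, which gives 82.8% split (75.8% to 88.4%). Among members covered in 2 oocytes, 113 of 134 at single-place spacings were split, against 409 of 1630 at spacings with 10 or more places. Depth was not equal: over all members, the median count was 17 at single-place ones and 20 at those with 10 or more places, and 10 reads were reached in a median of 4 libraries at the single-place ones and 12 at the others. Members with 2 to 9 places resembled the single-place ones, with 103 split and 5 inside of 139.

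Reads at recurring spacings were distributed unevenly over the chromosomes, and so were the members. Listed CpGs whose spacing has 10 or more places carried a mean of 285 counts each on chromosome 10, 197 on chromosome 11, 211 on chromosome 12, 125 on chromosome 13, 90.4 on chromosome 14 and 68.5 on chromosome 15, summed over the 18 libraries. On the other autosomes the same mean lay between 46.6 and 60.3, except for chromosome 16, which at 69.1 stood beside chromosome 15. Members were 32.6% of covered CpGs on chromosome 15 and 14.3% on chromosome 16. CpGs of the spacing that held most members, family 1 below, carried a mean of 187 counts on chromosome 15 and 102 on chromosome 16. Whether the share of members follows the counts was not tested. Single-place spacings carried 30.8 counts on chromosomes 10 to 15 and 33.3 elsewhere, with chromosome 17 the highest at 53.3. Chromosomes 10 to 15 held 75.8% of the members, against 56.1% of the covered CpGs that members could come from and 35.6% of the listed recurring CpGs. They held 88.3% of the inside CpGs, 2917 in number, but 29.9% of the split CpGs. How reads that match several places were assigned is not given in the sources used here. An intermediate value made of several copies read at 1 position and an intermediate value of that position itself cannot be told apart at recurring spacings.

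**Figure D2:**
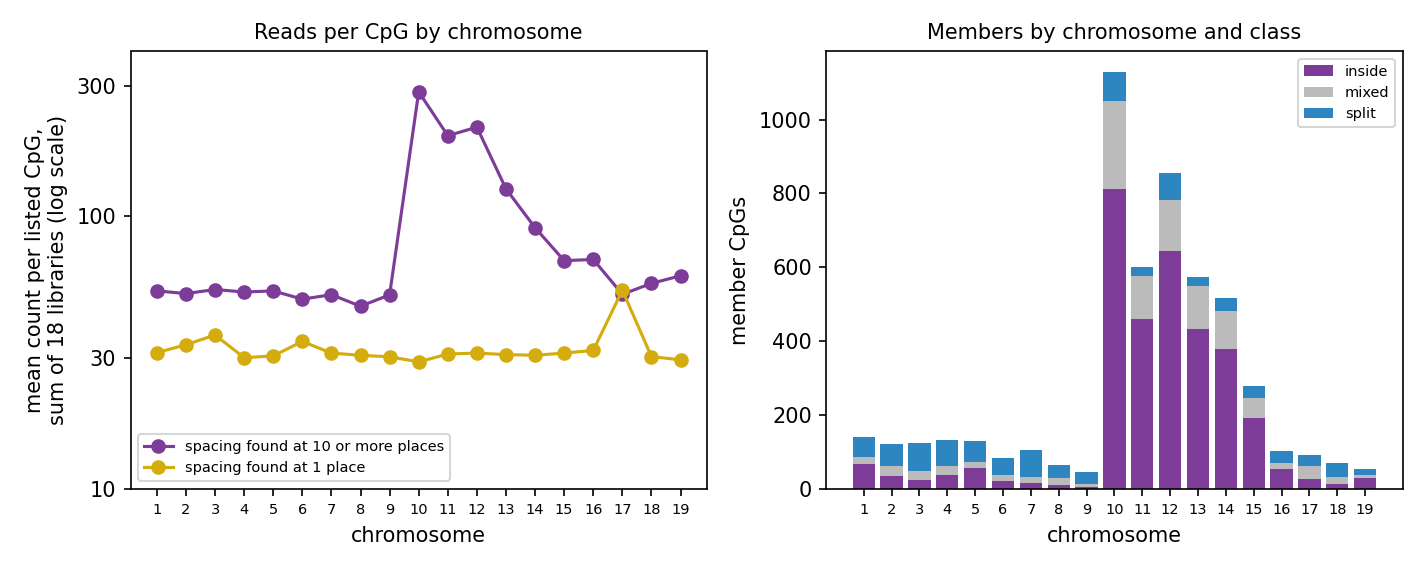
Mean count per listed CpG summed over 18 libraries on a log scale (left) and number of member CpGs by class (right), by chromosome. Counts at spacings with 10 or more places reach 285 on chromosome 10, where 1128 members lie, while counts at single-place spacings stay near 30 on most chromosomes.

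On chromosomes 1 to 9 and 16 to 19 the balance of the classes was the reverse. Of 1259 members there, 624 were split, or 49.6%, and 385 were inside, or 30.6%. The tie of inside CpGs to recurring spacing remained, at 98.4% of those with a run, against 63.9% of the split CpGs. This subset was chosen after the counts by chromosome had been seen.

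The same contrast ran through every oocyte when all autosomal CpGs with at least 10 reads were taken, whether or not the rule had chosen them. At spacings with 10 or more places, between 11.7% and 45.8% of CpGs lay from 20% to 80% in a given oocyte. At single-place spacings the range over the 18 oocytes was 0.26% to 2.88%. Median counts were 17 to 30 at the recurring spacings and 12 to 27 at the single-place ones. Drawing 10 reads at each CpG gave 14.8% to 49.4% and 0.48% to 3.36%. On chromosomes 1 to 9 and 16 to 19, recurring spacings gave means of 18.8% in EAF KO oocytes, 15.3% in EAF WT, 24.2% in SF KO and 13.6% in SF WT oocytes. Single-place spacings on these chromosomes gave 0.69% in EAF KO, 1.28% in EAF WT, 0.95% in SF KO and 0.69% in SF WT oocytes.

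**Figure D3:**
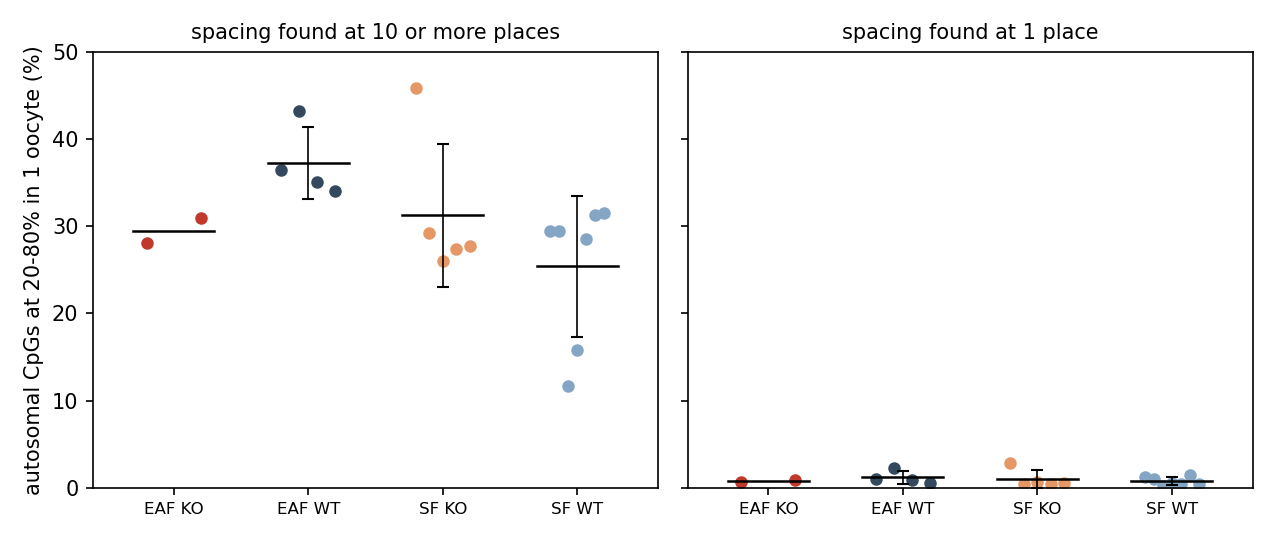
Share of autosomal CpGs with at least 10 reads that lay from 20% to 80% in an oocyte, for spacings found at 10 or more places (left) and at 1 place (right). Points are oocytes, lines are group means and bars, drawn for groups of more than 2 oocytes, are 1 SD, and the lowest oocyte on the left (11.7%) lies above the highest on the right (2.88%).

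The 5 inside CpGs with a single-place spacing fell into a pair of short stretches. On chromosome 11 of mm9, the CpG at position 3093586 read 44.2% and 64.5% in EAF KO oocytes and 47.6%, 68.8%, 31.2% and 48.1% in EAF WT oocytes. It read 53.1%, 27.2%, 68.7%, 55.5% and 59.5% in SF KO oocytes on 155 to 386 counts. In 6 SF WT oocytes it read from 0 to 64.7%. It was thus intermediate in every EAF and SF KO oocyte, while SF WT replicate 4 had none methylated on 38 counts. Its neighbour at 3093551 was lower, at 29.3% and 8.47% in EAF KO and 26.3% to 38.5% in EAF WT oocytes. The other 3 lay on chromosome 3 at positions 155435096, 155435271 and 155435301. They read from 50% to 73.7% in the 2 EAF WT oocytes that covered them, on 13 to 19 counts, against 0 to 3.57% in EAF KO replicate 2. SF KO replicates 2 and 3 and SF WT replicate 2 read 0 at all 3 of them. Gene annotation of these positions was not used here.

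An oocyte that had not helped to choose the members showed the classes again. Members and classes were assigned from 3 EAF WT oocytes and read in the fourth, for each oocyte in turn. At inside CpGs the left-out oocyte lay from 20% to 80% at 89.5%, 93.0%, 91.2% and 85.4% of CpGs, a mean of 89.8% ± 3.25 (SD, n = 4 oocytes). At split CpGs the same share was 4.26%, 24.2%, 19.0% and 16.1%, a mean of 15.9% ± 8.47, on 47 to 84 CpGs. Mixed CpGs averaged 73.1% ± 6.94 and all covered CpGs 49.6%. The ranges of inside and split CpGs did not overlap. In the left-out oocyte, split CpGs were under 20% at a mean of 59.0% and over 80% at 25.1%.

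CpG density, counted as listed CpGs within 100 bp on either side with the CpG itself, separated the classes. The median was 12 for inside CpGs, 8 for split CpGs and 10 for all covered CpGs. At densities of 10 to 19 lay 68.8% of inside CpGs, 28.0% of split CpGs and 48.1% of all covered CpGs. At 5 to 9 the shares were 27.4%, 53.6% and 32.7% in the same order of classes. Read the other way, members made up 16.3% of covered CpGs at densities of 1 to 4, 24.8% at 5 to 9, 30.9% at 10 to 19 and 0.81% at 20 or more. That densest class, in which promoter CpG islands are known to fall, held 13 members among 1603 covered CpGs, and none of the 13 was inside. Split CpGs formed 40.1% of members at densities of 1 to 4 and 8.02% at 10 to 19, and inside CpGs formed 32.1% and 73.2%.

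Members lay near other members, and few lay between a side of low mean and a side of high mean. Within 500 bp of an inside CpG, 75.3% of the other covered CpGs were members, 18.9% had a low mean and 5.73% a high mean. Around split CpGs these shares were 45.6%, 36.5% and 17.9%. Members were 24.9% of all covered CpGs. Low and high CpGs also lay near their own kind. Around low CpGs 87.6% of covered neighbours were low, and around high CpGs 69.6% were high. Patches were thus not particular to members, and neighbouring CpGs share reads. There were 4023 members with a covered CpG on both sides within 500 bp. Of these, 27, or 0.67%, had a low mean over the covered CpGs of one side and a high mean over those of the other. Members with a single low CpG on one side and a single high CpG on the other were not counted. Of the 1224 tiles, 286 held inside members alone, 416 held split members alone, and 30 held both inside and split members.

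Outright disagreement between the strands of a CpG was rare. Among intermediate values of members with at least 5 reads on each strand, the share with 1 strand under 20% and the other over 80% averaged 2.64% in EAF KO, 3.94% in EAF WT, 2.12% in SF KO and 3.90% in SF WT oocytes. SF WT replicate 4, at 11.4% of 35 values, lifted its group, which averaged 2.39% without it. Both strands were intermediate at 71.8% of these values in EAF KO, 71.6% in EAF WT, 67.7% in SF KO and 67.2% in SF WT oocytes. On chromosomes 1 to 9 and 16 to 19, opposite strands made up 24.4% in EAF WT oocytes. Over all autosomes, the EAF WT mean was 2.49% at inside and 14.1% at mixed CpGs. It was 3.23% at members whose spacing has 10 or more places. Single-place members gave 23.6%, on 3 to 9 values per oocyte, and members without a run 23.9%, on 5 to 19 values. Between 36.7% and 44.8% of intermediate values, as group means, came from 1 strand only.

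Outside EAF WT, members averaged about 30% to 40% methylation. The mean level over members was 31.7% and 34.3% in the EAF KO oocytes. SF KO oocytes stood at 55.4% in replicate 1 and at 29.5%, 27.0%, 30.9% and 28.6% in replicates 2 to 5. The 7 SF WT oocytes ran from 27.5% through a median of 38.7% to 44.9%. SF KO replicate 1 lay above all SF WT oocytes, and the other 4 SF KO oocytes lay below all SF WT oocytes but replicate 3, which read 27.5% on 437 members and exceeded SF KO replicate 3. The next lowest SF WT oocyte read 33.5%. The means were 33.0% in EAF KO, 34.3% ± 11.9 in SF KO and 38.6% ± 6.29 in SF WT oocytes (SD, n = 2, 5 and 7, with no SD for the pair). Members stayed intermediate inside single oocytes in these groups, at 74.8% of member values in EAF KO, 71.0% in SF KO (66.96% without replicate 1) and 78.5% in SF WT oocytes. In the same order, the shares were 35.4%, 38.5% and 35.3% over all covered CpGs. At covered CpGs with a high EAF WT mean they were 54.6%, 52.2% and 46.7%, so intermediate values were not particular to members. On chromosomes 1 to 9 and 16 to 19 the member shares were 46.3%, 49.5% and 51.3%.

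The SF knockout difference was small over all 5 oocytes and larger without SF KO replicate 1. SF KO minus SF WT was -4.30 points, and -9.57 points without that oocyte, when SF KO averaged 29.0% ± 1.61 (n = 4). At the 2113 members covered in at least 2 oocytes of every group, the difference was -3.22 points and 64.4% of CpGs were lower in SF KO. Without SF KO replicate 1 those values were -8.53 points and 86.5%. The share of lower CpGs was not taken outside members. EAF KO minus SF KO was -1.31 points over members and turned to 3.96 points without that oocyte, so no direction can be given for knockout oocytes between the stages. Both differences share the SF KO oocytes. At covered CpGs with a high mean, SF KO minus SF WT was -14.5 points, and at those with a low mean 1.52 points. Without SF KO replicate 1 these were -17.7 and -1.32 points, so a lower SF KO level was not particular to members.

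Inside and split CpGs behaved differently in these groups. Inside CpGs averaged 34.1% in EAF KO, 35.9% in SF KO and 40.2% in SF WT oocytes, and 82.8%, 79.1% and 86.0% of their values were intermediate in these groups, in this order. Without SF KO replicate 1, SF KO averaged 30.6% at inside CpGs with 75.3% of values intermediate. Split CpGs averaged 29.3% in EAF KO, 26.2% in SF KO and 27.6% in SF WT oocytes, but just 11.9% of their values were intermediate in EAF KO, 11.4% in SF KO and 8.22% in SF WT oocytes. Without SF KO replicate 1, SF KO averaged 20.8% at split CpGs with 7.92% of values intermediate. Split CpGs were again mostly low or high, with 64.98% of values under 20% and 23.2% over 80% in EAF KO oocytes. Of the 151 single-place members, 18 and 43 reached 10 reads in the EAF KO oocytes, 26 to 46 in SF KO and 3 to 43 in SF WT oocytes. Those covered were low, at 14.9% in EAF KO, 17.6% in SF KO (13.1% without replicate 1) and 17.6% in SF WT oocytes. The EAF WT oocytes that chose these members averaged 50.4%.

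**Figure D4:**
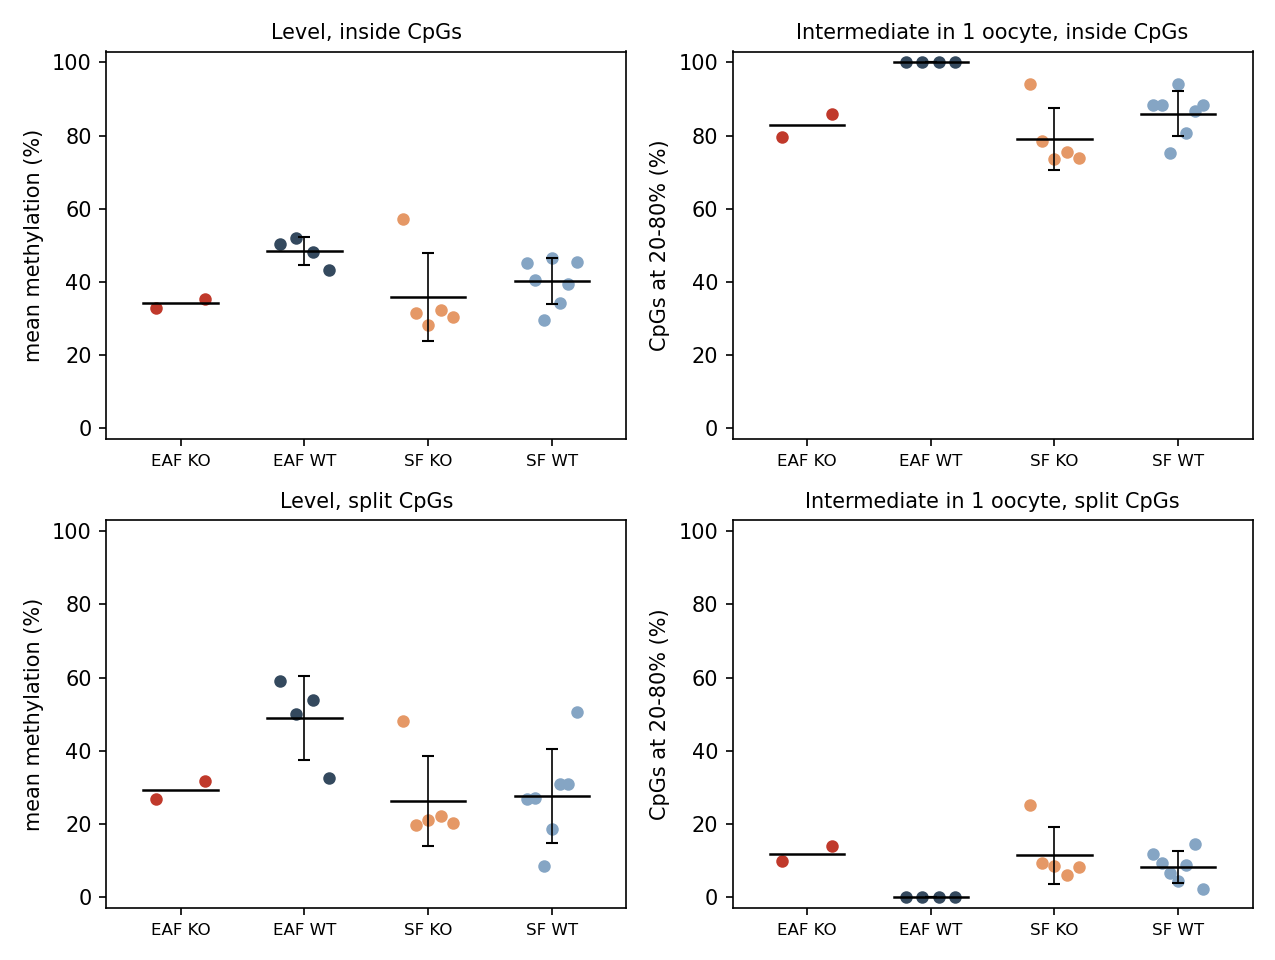
Mean methylation (left) and share of CpGs from 20% to 80% (right) per oocyte, at inside CpGs (top) and split CpGs (bottom). Points are oocytes, lines group means and bars 1 SD for groups of more than 2, and the EAF WT shares of 100% and 0 on the right are set by the rule.

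Group means at single CpGs told the same. Members averaged from 30% to 70% at 63.01% of 2244 CpGs covered in at least 2 EAF KO oocytes, at 64.6% of 4643 in SF KO and at 70.5% of 3453 in SF WT oocytes. Nearly all others were below 30%. The same shares over all covered CpGs were not taken. Across members, the mean levels in SF KO and SF WT oocytes had a Pearson r of 0.63 and a Spearman rho of 0.63 over 3377 CpGs, and EAF KO and SF KO an r of 0.71 and a rho of 0.70 over 2230 CpGs. The r values were 0.65 and 0.70 without SF KO replicate 1. These CpGs share libraries and spacings and are not independent.

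Against EAF WT oocytes that had no part in the choice, EAF KO oocytes were lower at members in all 4 rounds. With each EAF WT oocyte left out in turn, EAF KO averaged 33.2%, 33.4%, 32.7% and 31.7%, and the left-out EAF WT oocyte read 47.3%, 49.99%, 45.4% and 36.8%. The mean difference was -12.1 points with a range of -16.6 to -5.09, and on CpGs covered in both oocytes of a pair it was -12.3. Neither EAF KO oocyte reached the left-out EAF WT oocyte in any round, though the margin was smallest for EAF WT replicate 4. Inside CpGs gave -12.5 points, from -17.5 to -5.07. Split CpGs gave -5.16 points and ranged from -20.5 to 11.7, so their direction varied with the oocyte. On CpGs covered in both oocytes of a pair, split CpGs gave -11.3 points, from -26.7 to 4.48, with as few as 4 CpGs in a pair. On chromosomes 1 to 9 and 16 to 19 the difference at members was -11.4 points. EAF KO rests on 2 oocytes, and the rounds share them. No such rounds were run at CpGs with a low or high mean. EAF KO averaged 9.65% at the low and 56.0% at the high ones, against 8.40% and 90.1% in the EAF WT oocytes that sorted them. A lower EAF KO level is thus not shown to be particular to members.

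Shifts of 20 points or more at single CpGs were a minority of members in SF oocytes, and how their share compared with other CpGs depended on the set compared and on SF KO replicate 1. Of 3377 members covered in at least 2 oocytes of both SF groups, 225, or 6.66%, were lower in SF KO by that much, against 8.25% of all 29487 autosomal CpGs compared and 4.71% of the 9885 compared CpGs that members could come from. Higher by that much were 94 members, or 2.78%, against 4.62% of all CpGs and 2.66% of those 9885. The median difference was -2.41 points at members and 0 over all CpGs. Without SF KO replicate 1, 448 of 3350 members were lower, or 13.4%, against 10.4% of all CpGs and 8.24% of the covered CpGs. Higher were 45 members, or 1.34%, against 2.59% of all CpGs and 1.39% of the covered CpGs. Between EAF KO and SF KO, 58 of 2230 members were lower, or 2.60%, against 3.93% of all CpGs and 1.70% of the 6369 covered CpGs compared. Higher were 27 members, or 1.21%, against 2.07% of all CpGs and 1.11% of those 6369. Leaving out SF KO replicate 1 turned these to 26 lower, or 1.17%, against 2.04% of all CpGs and 0.96% of the covered CpGs. The members higher became 83, or 3.74%, against 3.12% of all CpGs and 2.11% of the covered CpGs. For EAF KO against EAF WT, 604 of 2244 members were lower and 9 higher, against 12.3% and 1.05% of all CpGs, but that contrast holds the values of the rule and nothing is read from it.

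A handful of spacings accounted for much of the membership. The runs were taken in turn by the number of members they held, which is again a choice made on these values. Family 1 had gaps of 2, 2, 52, 12 and 14 bp, occurred at 922 places on all 19 autosomes and held 1138 members, 892 of them inside. Family 2 had gaps of 2, 18, 34, 12 and 14 bp, where 18 and 34 add up to the 52 bp of family 1, and held 625 members at 1107 places. Family 3 had gaps of 8, 2, 16, 8 and 34 bp and held 350 members at 201 places. Family 4 had gaps of 2, 16, 8, 23 and 11 bp and held 333 members at 554 places. Together the 4 families held 2446 members, or 47.0%, and the 1-kb tiles with such a run held 3993 members, or 76.7%. Those tiles held 91.0% of inside CpGs, 25.6% of split CpGs and 31.2% of all covered CpGs.

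Summed counts gave the level of each family per oocyte, over all of its CpGs and not members alone. Family 1 read 30.1% and 30.2% in EAF KO oocytes, against 42.1%, 49.5%, 42.2% and 35.9% in EAF WT oocytes. The groups did not overlap, and the means differed by -12.3 points. For family 2 the EAF KO oocytes read 18.0% and 23.4% and the EAF WT oocytes 28.8% to 40.1%, a difference of -13.9 points. Family 3 read 40.3% and 41.6% in EAF KO, against 46.1% to 64.7% in EAF WT oocytes, a difference of -12.5 points. Family 4 read 37.4% and 45.8% in EAF KO, against 57.3% to 72.5% in EAF WT oocytes, a difference of -22.6 points. All 4 families were thus lower in both EAF KO oocytes than in each EAF WT oocyte. This was not particular to the families when all autosomal CpGs with at least 10 reads were taken. At spacings with 10 or more places, EAF KO oocytes read 17.6% and 22.5%, against 26.0% to 34.0% in EAF WT oocytes. At single-place spacings EAF KO oocytes read 1.89% and 3.62%, against 10.9% to 13.8% in EAF WT oocytes. Leaving out the member CpGs gave family 1 levels of 26.1% in EAF KO and 39.3% in EAF WT oocytes, so the lower level was not held by members alone. EAF WT values helped to pick these families, which makes the EAF differences a description.

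In SF oocytes the families depended on SF KO replicate 1. Family 1 read 54.2% in that oocyte and 23.2% to 29.2% in the other 4 SF KO oocytes, against 27.8% to 45.5% in SF WT oocytes. SF KO minus SF WT was -4.22, -2.13, -1.17 and -9.15 points for families 1 to 4, and -9.71, -8.09, -6.95 and -14.7 points without SF KO replicate 1. The sign was not stable in families 2 and 3: it turned to 0.481 points in family 2 without SF WT replicate 7, and in family 3 to 2.41 points without SF KO replicate 3, 0.132 without SF KO replicate 2 and 0.714 without SF WT replicate 1. For family 4 the remaining SF KO oocytes read 30.6% to 44.3%, against 43.1% to 60.1% in SF WT oocytes. The remaining SF KO oocytes overlapped SF WT in all 4 families. In families 2 and 4 the overlap came from SF WT replicate 3 alone, at 16.8% on 119 counts and 43.1% on 5820 counts.

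**Figure D5:**
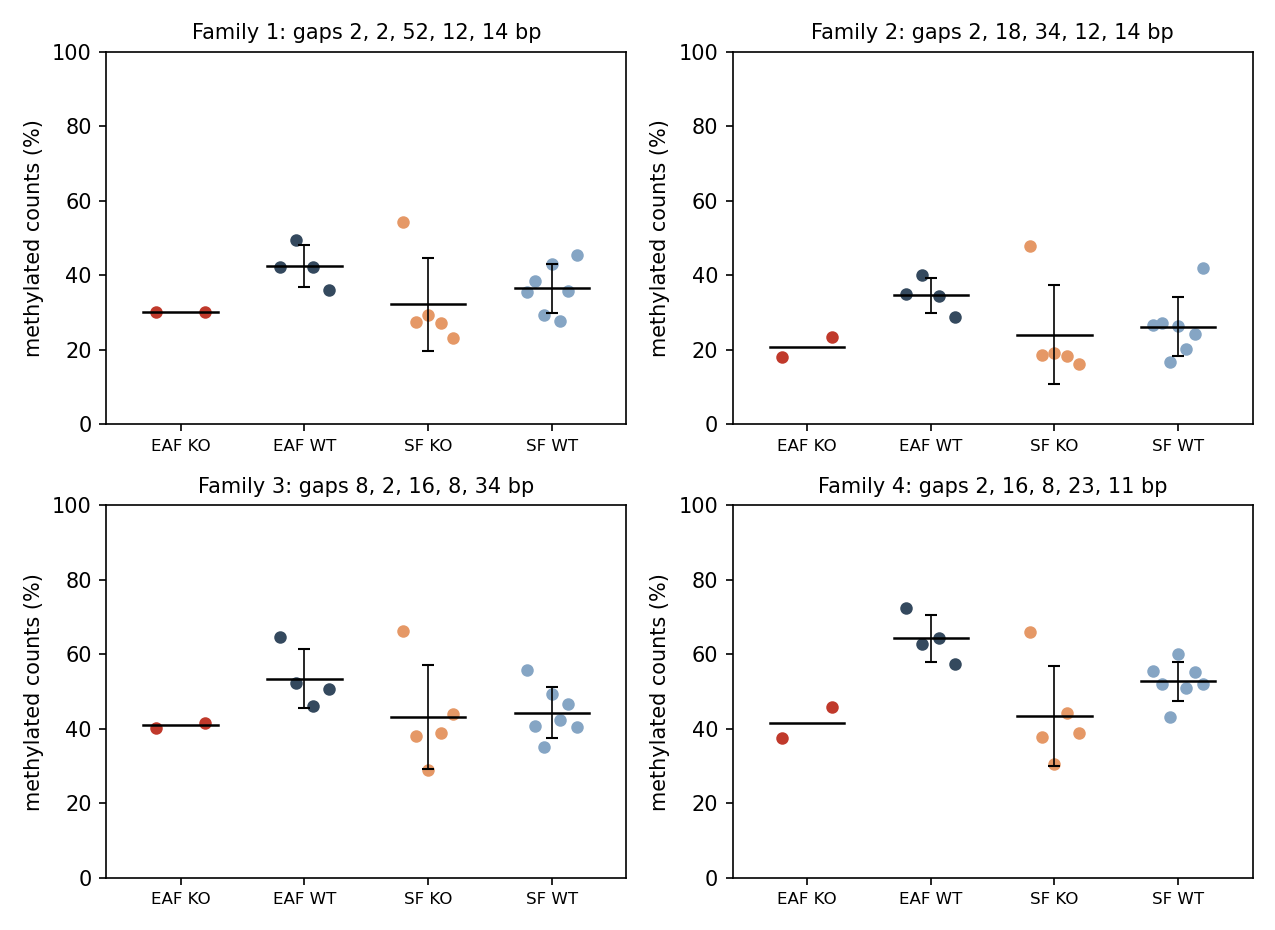
Methylated share of all counts at the CpGs of 4 recurring spacings, per oocyte, with group means and, for groups of more than 2 oocytes, bars of 1 SD. Both EAF KO oocytes lie below all 4 EAF WT oocytes in each family, and SF KO replicate 1 lies above the other SF KO oocytes.

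Levels varied by position within a run, and in families 1 and 2 the first 3 CpGs were above the last 3 in all groups. In family 1 the first 3 CpGs averaged 46.3%, 37.4% and 37.6% in EAF KO and 58.4%, 48.0% and 46.7% in EAF WT oocytes. Its last 3 averaged 17.7%, 16.99% and 25.2% in EAF KO and 30.8%, 30.5% and 41.2% in EAF WT oocytes. SF KO oocytes ran from 47.9% at the first CpG to 19.8% at the fourth, and SF WT oocytes from 53.0% at the first to 24.6% at the fourth. Family 2 showed the same division, with 25.9% to 29.0% at its first 3 CpGs and 11.03% to 16.6% at its last 3 in EAF KO oocytes, and 39.4% to 42.2% against 24.4% to 32.5% in EAF WT oocytes. In family 4 the fifth CpG was the lowest in every group, at 25.7% in EAF KO, 49.1% in EAF WT, 30.1% in SF KO and 36.9% in SF WT oocytes. Family 3 was less uniform: its lowest CpG was the fourth in EAF KO, at 34.6%, and in EAF WT, at 49.6%, but the sixth in SF KO, at 36.5%, and in SF WT, at 37.8%. The SF KO values without replicate 1 were lower, at 43.5% for the first and 13.8% for the fourth CpG of family 1.

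Levels at the places of a family spread more widely than counting of independent reads gives. With the mean of each position removed, the SD over places in an oocyte was 19.8 to 26.2 points for family 1, where counting alone gives 7.57 to 11.9 points. For family 3 the SD was 17.1 to 25.2 points, where counting alone gives 8.43 to 11.5. Counting alone takes each read as an independent molecule. An oocyte holds only several copies of a CpG, and PCR copies are not independent. How reads that match several places were assigned is not given. Whether the places themselves differ in level was therefore not tested. Places were alike between oocytes to a degree that varied by family and group: the residual levels of the 2 EAF KO oocytes had a Pearson r of 0.39 over 923 CpGs of family 1, pairs of SF KO oocytes averaged 0.51 and pairs of SF WT oocytes 0.28, with 0.085 as the lowest pair. The mean r was 0.17 in EAF KO, 0.19 in SF KO and 0.196 in SF WT for family 2, and 0.32, 0.14 and 0.29 in that order of groups for family 3. For family 4 it was 0.32 in EAF KO, 0.33 in SF KO and 0.47 in SF WT. CpGs of a place share reads, so these correlations are descriptions.

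Single tiles show what the classes look like. The tile with most inside CpGs, chr12:63278001-63279000 of mm9, held 45 members, 44 of them inside, with spacings found at 97 to 163 places. Its members averaged 33.4% and 40.3% in EAF KO oocytes, 58.8%, 45.2%, 45.9% and 50.9% in EAF WT oocytes, 27.0% to 62.9% in SF KO oocytes and 33.2% to 52.0% in SF WT oocytes. The next, chr12:99058001-99059000, held 39 members at 39.4% and 42.5% in EAF KO and 53.8% to 70.9% in EAF WT oocytes. Each of the 6 tiles with most inside CpGs lay on chromosomes 10 to 13, held no split CpG and had a run for each member with at least 97 places. In all 6, both EAF KO oocytes lay below every EAF WT oocyte, whose values chose the members.

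Tiles of split CpGs varied. At chr7:31604001-31605000 all 7 members were split and each spacing was found at a single place. EAF WT replicate 3 read 99.6% on 254 counts and EAF WT replicate 1 read 0 on 123 counts. EAF KO replicate 2 read 0.16% on 598 counts, and SF KO replicates 2 and 5 and SF WT replicates 1 and 7 read 0 on 77 to 290 counts. One oocyte of the 7 that covered the tile was therefore methylated. At chr2:109997001-109998000, where spacings had 42 to 58 places, the 7 split members read 0 in EAF WT replicate 1 and 100% in EAF WT replicate 3. Other oocytes were high there, at 76.0% in EAF KO replicate 1, 85.7% and 100% in SF KO replicates 3 and 4, and 100% and 81.7% in SF WT replicates 1 and 6. At chr10:11514001-11515000 the 9 split members read 100% in EAF WT replicate 1 and 0 in EAF WT replicate 3, and 44.4% in EAF KO replicate 2. Not all split tiles had wholly high and wholly low oocytes. At chr4:23134001-23135000 all 7 members were split, but the tile averaged 42.9% to 50% in each of 3 EAF WT oocytes. The tile at chr12:43342001-43343000 held 7 inside and 6 split members and averaged 24.1% to 71.8% in EAF WT oocytes.

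Over 292 tiles with at least 3 members and at least 3 oocytes of each SF group, 208 were lower in SF KO and 84 higher, and the differences averaged -3.55 points. Without SF KO replicate 1, 266 of 291 tiles were lower and 25 higher, with an average of -9.23 points. Tiles of other covered CpGs were not counted, so these numbers are not shown to be particular to members. Over single CpGs with all 5 SF KO oocytes, the mean difference was -2.94 points at members and -2.37 over all autosomal CpGs compared. The tile at chr11:29232001-29233000 read 47.5%, 24.5%, 27.5%, 32.8% and 31.7% in SF KO oocytes and 55.8%, 59.2% and 57.1% in 3 SF WT oocytes, a difference of -24.6 points with no overlap. The tile at chr13:104786001-104787000 read 38.4% to 56.7% in SF KO and 11.7%, 29.0% and 19.6% in SF WT oocytes, a difference of 23.5 points, also with no overlap. They are among the 4 tiles with the largest difference in each direction, on counts of 60 to 624 per oocyte. They are shown because their groups do not overlap, so both their size and that separation are a description. How many of the 292 tiles had no overlap was not counted. Other picked tiles depended on single oocytes. At chr13:20810001-20811000 the difference was 17.4 points, but 4.26 when SF WT replicate 6 was left out and 28.3 when SF WT replicate 1 was. At chr11:55484001-55485000 it was 21.5 points, but 12.4 when SF KO replicate 4 was left out and 34.3 when SF KO replicate 5 was. At chr17:39983001-39984000 it was -28.4 points, and leaving out SF WT replicate 1 made it -45.0, while leaving out SF WT replicate 5 made it -16.5.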

How the data were processed

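Per the labels' protocols, the RRBS libraries were made from MspI fragments of 1 oocyte each, with 200 to 500 bp selected. BSMAP 2.89 and mm9 are named in the submitters' processing notes. As deposited, per the file headers, a table gives the total count and the methylated count of each CpG, over both strands and per strand. The deposited methylation ratio is a fraction of those counts. The treatment of reads with several matches and of PCR copies is not given in the sources used here, and either could move the levels at repeated sequence.

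Levels were recomputed from counts at CpGs with at least 10 reads, and an oocyte's level is the mean over its CpGs. Group values are means over oocytes. Members, classes, spacing families and the subset of chromosomes were chosen with earlier results of these data known. Named tiles were the 6 with most inside members, the 6 with most split members, and the 4 with the largest SF KO minus SF WT difference each way among tiles with at least 3 members and 3 oocytes per SF group. Tiles of 1 chromosome are not reported here. The class and spacing steps were tested on simulated data. Alternatives changed the read minimum, both ranges, the coverage rule, the density radius, the oocytes and the chromosomes. Genes and sequence were not analysed here, since no mm9 genome or annotation was used. Software was matplotlib 3.10.9, pandas 2.3.3, numpy 2.4.6 and scipy 1.17.1 under Python 3.11.15.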

Additional observations from a re-analysis of the deposited data

Results flagged for a closer look

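In 33 comparisons of 1 oocyte with the others of its group, 13 values lay apart by Dixon's criterion, which chance meets in about 1 in 20 groups, and many of the values come from the same oocyte and overlapping CpGs. SF KO replicate 1 gave 10 of them, all high. Its level was 55.4% over members, against at most 30.9% in the other SF KO oocytes, 57.2% at inside CpGs, against at most 32.3%, and 48.1% at split CpGs, against at most 22.1%. Its share of intermediate values was 87.2% over members, 94.1% at inside CpGs and 25.2% at split CpGs. Over all autosomal CpGs that share was 45.8% at recurring spacings, against at most 29.2% in the other SF KO oocytes, and 2.88% at single-place spacings, against at most 0.67%. Its level was 54.2% in spacing family 1 and 47.9% in family 2. Whether this oocyte fits its label was not tested.

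SF WT replicate 7 read 41.9% in spacing family 2, against 16.8% to 27.1% in the other SF WT oocytes. Opposite strands made up 5.14% of the intermediate member values in EAF WT replicate 3, against 3.44% to 3.61% in the other EAF WT oocytes, and 11.4% in SF WT replicate 4, against 1.61% to 3.54%.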

How the results depend on the processing

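Among the differences rerun at each setting, EAF KO minus SF KO over members and SF KO minus SF WT in spacing families 2 and 3 changed direction, and SF KO minus SF WT over members, in families 1 and 4 and in the named tiles did not. Leaving out SF KO replicate 1 also turned EAF KO minus SF KO at inside CpGs (-1.82 points) to 3.51 points and in the 4 families to between 2.61 and 3.68 points, and SF KO minus SF WT at members of density 5 to 9 (1.37 points) to -4.13 points. EAF KO stayed below left-out EAF WT oocytes at members at each setting, from -13.6 to -10.4 points when single oocytes were left out. Sizes and shares moved more, most of all with the read minimum, with 1 CpG per tile and off chromosomes 10 to 15, where split CpGs outnumbered inside CpGs. That last setting, like the number of places for a recurring spacing, was chosen after the data had been seen, and the causes of these moves were not tested. Depth limits the split class, which rests mostly on 2 oocytes at about 17 reads. No paired analysis was possible because no result comes from a test and the replicate numbers only name oocytes.

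Values that moved beyond a margin set for their kind, or changed sign, are given with the reported value in parentheses. For levels, differences and other means over oocytes the margin was the spread between oocytes. For class, density, spacing and boundary shares it was the exact binomial interval over CpGs, which covers counting error only. Numbers of CpGs were judged by their ratio to the reported number. These shares and numbers were thus not compared with a spread between oocytes. The number of members was 5207 and became 10097 with 5 reads, 2066 with 20 reads, 3247 with means of 40% to 60%, 3018 with 3 covered EAF WT oocytes, 1224 with 1 CpG per tile and 1259 off chromosomes 10 to 15. The inside share of members (63.4%) was 44.8% with 5 reads, 79.1% with 20 reads, 67.1% with means of 40% to 60%, 50.9% with means of 20% to 80%, 75.6% with a class range of 10% to 90% and 34.1% with a class range of 30% to 70%. It was 75.1% with 3 covered EAF WT oocytes, 65.7% from summed counts, 41.2% with 1 CpG per tile, 69.9% without the 4 shallow libraries and 30.6% off chromosomes 10 to 15, with 63.4% to 74.7% when single oocytes were left out. The split share (17.1%) was 25.8% with 5 reads, 8.37% with 20 reads, 24.5% with means of 40% to 60%, 12.4% with means of 20% to 80%, 14.7% with a class range of 10% to 90% and 20.2% with a class range of 30% to 70%. It was 3.18% with 3 covered EAF WT oocytes, 13.8% from summed counts, 36.8% with 1 CpG per tile, 14.3% without the 4 shallow libraries and 49.6% off chromosomes 10 to 15, with 9.499% to 17.1% when single oocytes were left out. At inside CpGs the left-out oocyte was intermediate at 89.8%, and at 84.02% with 5 reads, 93.1% with 20 reads, 96.2% with a class range of 10% to 90%, 75.8% with a class range of 30% to 70%, 80.97% with 1 CpG per tile and 73.4% off chromosomes 10 to 15. At split CpGs it was intermediate at 15.9%, and at 33.4% with 3 covered EAF WT oocytes, with 15.9% to 25.6% when single oocytes were left out. The EAF KO level (32.97%) moved to 35.004% with 20 reads, 35.2% with means of 40% to 60%, 29.1% with means of 20% to 80%, 27.2% with 1 CpG per tile, 34.9% without the 4 shallow libraries and 30.4% off chromosomes 10 to 15. EAF KO minus SF KO, which was -1.31 points, reversed to 0.241 points without the 4 shallow libraries, with -3.12 to 3.96 points when single oocytes were left out. Members at densities of 5 to 9 (32.6%) were 35.9% with 5 reads, 24.1% with 20 reads, 34.1% with means of 40% to 60%, 28.2% with 3 covered EAF WT oocytes, 39.3% with 1 CpG per tile and 7.76% within 250 bp. The share was 28.5% without the 4 shallow libraries and 40.5% off chromosomes 10 to 15, with 28.5% to 32.6% when single oocytes were left out. Those at densities of 10 to 19 (59.6%) were 50.5% with 5 reads, 71.1% with 20 reads, 55.7% with means of 20% to 80%, 67.3% with 3 covered EAF WT oocytes, 61.3% from summed counts and 31.7% with 1 CpG per tile. Their share was 28.4% within 250 bp, 63.1% without the 4 shallow libraries and 47.6% off chromosomes 10 to 15, with 59.6% to 63.3% when single oocytes were left out. Recurring spacing among inside CpGs (99.7%) was 99.2% with 5 reads, 99.4% with a class range of 10% to 90%, 99.9% with 3 covered EAF WT oocytes, 98.5% with 1 CpG per tile, 99.9% with runs of 5 CpGs and 98.9% with 50 or more places. It was 98.4% off chromosomes 10 to 15. Among split CpGs (67.3%) it was 62.1% with 5 reads, 77.03% with 20 reads, 74.4% with 3 covered EAF WT oocytes, 57.3% with 1 CpG per tile, 75.9% with runs of 5 CpGs and 82.1% with 2 or more places. It was 51.1% with 50 or more places, with 64.8% to 74.6% when single oocytes were left out. The intermediate share of member values in EAF KO (74.8%) was 64.1% with 5 reads, 85.6% with 20 reads, 80.4% with means of 40% to 60%, 62.1% with means of 20% to 80%, 86.3% with a class range of 10% to 90% and 55.02% with a class range of 30% to 70%. It was 80.4% with 3 covered EAF WT oocytes, 51.5% with 1 CpG per tile, 78.4% without the 4 shallow libraries and 46.3% off chromosomes 10 to 15. In SF KO (71.01%) it was 60.9% with 5 reads, 84.8% with a class range of 10% to 90%, 49.2% with a class range of 30% to 70%, 51.05% with 1 CpG per tile and 49.5% off chromosomes 10 to 15. In SF WT (78.5%) it was 66.7% with 5 reads, 89.4% with 20 reads, 69.9% with means of 20% to 80%, 88.01% with a class range of 10% to 90%, 60.4% with a class range of 30% to 70% and 84.1% with 3 covered EAF WT oocytes. It was 54.9% with 1 CpG per tile and 51.3% off chromosomes 10 to 15. The share of opposite strands in EAF WT (3.94%) was 5.52% with 5 reads, 1.63% with 20 reads, 2.44% with means of 40% to 60%, 5.46% with means of 20% to 80%, 1.72% with a class range of 10% to 90% and 8.42% with a class range of 30% to 70%. It was 2.33% with 3 covered EAF WT oocytes, 10.4% with 1 CpG per tile and 24.4% off chromosomes 10 to 15. The boundary share (0.67%) was 1.01% with 5 reads, 0.303% with 20 reads, 3.20% with means of 40% to 60%, 0.169% with means of 20% to 80%, 0.165% with 3 covered EAF WT oocytes and 2.27% with 1 CpG per tile. It was 1.76% off chromosomes 10 to 15. Members lower in SF KO than in SF WT by 20 points (225) numbered 767 with 5 reads, 38 with 20 reads, 121 with means of 40% to 60%, 97 with 3 covered EAF WT oocytes, 53 with 1 CpG per tile and 100 off chromosomes 10 to 15, with 107 to 448 when single oocytes were left out. Members higher in SF KO (94) numbered 345 with 5 reads, 4 with 20 reads, 55 with means of 40% to 60%, 39 with 3 covered EAF WT oocytes, 29 with 1 CpG per tile and 58 without the 4 shallow libraries. They numbered 28 off chromosomes 10 to 15, with 45 to 119 when single oocytes were left out. Members lower in EAF KO than in SF KO (58) numbered 306 with 5 reads, 5 with 20 reads, 33 with means of 40% to 60%, 29 with 3 covered EAF WT oocytes, 10 with 1 CpG per tile and 17 off chromosomes 10 to 15, with 26 to 94 when single oocytes were left out. Members higher in EAF KO than in SF KO (27) numbered 160 with 5 reads, 5 with 20 reads, 15 with means of 40% to 60%, 16 with 3 covered EAF WT oocytes, 8 with 1 CpG per tile and 13 off chromosomes 10 to 15, with 16 to 83 when single oocytes were left out. In spacing family 2, SF KO minus SF WT (-2.13 points) was lowest with SF KO replicate 1 left out, at -8.09 points, and reversed to 0.481 points with SF WT replicate 7 left out. In family 3 (-1.17 points) the lowest value, -6.95 points, again came with SF KO replicate 1 left out. There the difference reversed to 2.41 points when SF KO replicate 3 was dropped, to 0.132 points when SF KO replicate 2 was and to 0.714 points when SF WT replicate 1 was.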
